A study of Mus musculus with 20 samples.

Results

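The voltage-gated sodium channel genes examined here were 4 genes of pore-forming alpha subunits (Scn1a, Scn2a, Scn3a and Scn8a) and 3 genes of auxiliary beta subunits (Scn2b, Scn3b and Scn4b), chosen by gene name and not by a threshold on any value. They were 7 of the 35580 genes quantified, with 53 of 113580 annotated transcripts. Bulk RNA was sequenced from 2 brain regions, hippocampus and neocortex, of male mice aged 13.5 months, either wild-type controls (WT) or miR-324-null. Their background was C57BL/6J by backcross. The founders were of mixed C57BL/6 and CBA/ca origin, and WT and miR-324-null lines were then bred through heterozygous crosses. The miR-324-null line carried a deletion at Mir324 that was made with CRISPR/Cas9 in zygotes and was present in every tissue, so that effects on the adult brain and on its development are not separated. Each of the 4 groups (WT hippocampus, miR-324-null hippocampus, WT neocortex, miR-324-null neocortex) held 5 samples, and the labels do not tell which hippocampus and neocortex came from one mouse. The comparisons asked how sodium channel mRNA differs between the tissues and whether it differs with the loss of miR-324, a question raised by the study's interest in hippocampal excitability.

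Voltage-gated sodium channels open on depolarisation and carry the inward current that starts and propagates the action potential. A single large alpha subunit forms the pore and the gates, and beta subunits, small membrane proteins with an immunoglobulin-like domain, alter gating and surface expression. In the forebrain, the product of Scn1a is the main alpha subunit of fast-spiking interneurons, that of Scn2a serves the proximal axon and dendrites of excitatory neurons, and that of Scn8a serves the distal axon initial segment and the nodes of Ranvier. Scn3a is best known from the developing brain. Scn2b and Scn4b encode subunits bound to the pore by a disulphide bond, whereas the Scn3b product associates without one, and the Scn4b product can block open channels and so support resurgent current.

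Because miR-324 was absent in one genotype, the mature sequences of both its arms are shown with the seed, bases 2 to 8, in capitals. They are RefSeq sequences on GRCm38.p6, from chr11:70012060-70012082 for the 5p arm and chr11:70012095-70012114 for the 3p arm, both on the plus strand.
mmu-miR-324-5p: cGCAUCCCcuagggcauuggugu
mmu-miR-324-3p: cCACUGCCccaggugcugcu
The letters searched in the annotated 3′UTRs, on the transcribed strand only, were GGGATGC for the 5p arm and GGCAGTG for the 3p arm. The 5p letters occurred in Scn2b and Scn4b, 2 of the 7 sodium channel genes, against 7.77% of 21018 genes with an annotated 3′UTR. The 3p letters occurred in Scn2b alone among the 7, against 13.45% of those genes. The windows below, with the match in capitals, lie on the plus strand of chromosome 9 within the 3′UTR, with the match itself at chr9:45126971-45126977 for Scn2b and 5p, chr9:45151410-45151416 for Scn4b and 5p, and chr9:45126607-45126613 for Scn2b and 3p.
Scn2b, 5p: gctgctccatggGGGATGCtggcgagaggt
Scn4b, 5p: caccttccctgaGGGATGCtttcctaggac
Scn2b, 3p: tgggggagggagGGCAGTGggagaagaggt
A match is a description of the letters and not a measured site. These 3′UTRs are 3766 bases long in Scn2b and 3648 in Scn4b, and the shares over all genes were not matched for length. Shorter matches, and a second form of the 3p arm that the paper names, were not searched.

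The deposited counts totalled 12752439 to 19617765 per sample. Every gene was well covered, from a lowest count of 154 for Scn4b in a hippocampus sample to a highest of 7882 for Scn8a. The tissue labels held on markers: 6 of 6 hippocampal field markers (such as Prox1 and Zbtb20) were higher in hippocampus in both genotypes and 5 of 6 neocortical layer markers (such as Rorb and Cux2) were lower. Libraries that stood apart were found by choroid plexus markers such as Ttr: WT hippocampus 3 (summed CPM, counts scaled for library size, of 4537 against a group median of 79.7), miR-324-null hippocampus 5 (3892 against 115) and miR-324-null neocortex 2 (807 against 58.4). WT neocortex 2 and miR-324-null neocortex 3 had the most striatal marker mRNA of their groups (584 and 813 CPM). The deleted microRNA itself was not analysed here.

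Measured as TPM (transcript abundance corrected for transcript length and scaled to a fixed total, which allows genes to be compared), the beta subunit genes Scn3b and Scn2b were the most abundant in hippocampus. In WT hippocampus the order was Scn3b (111 ± 5.79 TPM, mean ± SD, n = 5), Scn2b (96.6 ± 5.13), Scn8a (59.2 ± 3.96), Scn2a (47.6 ± 5.55), Scn1a (21.4 ± 3.42), Scn4b (11.8 ± 4.09) and Scn3a (9.34 ± 1.54). The samples of Scn8a and Scn2a overlapped, as did those of Scn4b and Scn3a, and the other neighbours in that order were separate. In WT neocortex the order was Scn2b (100.8 ± 7.29 TPM), Scn8a (65.0 ± 4.82), Scn2a (58.6 ± 10.2), Scn4b (48.5 ± 13.8), Scn1a (43.9 ± 4.96), Scn3b (35.6 ± 5.35) and Scn3a (6.84 ± 0.917). There, Scn2b stood clear at the top and Scn3a at the bottom, and the 5 genes between them formed a chain of overlapping neighbours. By group mean, miR-324-null mice kept Scn3b, Scn2b and Scn8a as the first 3 genes in hippocampus and Scn2b and Scn3a as the first and last in neocortex. In miR-324-null hippocampus the samples of Scn3b and Scn2b overlapped. Scn2b was ahead there in replicate 1 (85.3 against 81.0 TPM) and replicate 2 (89.97 against 89.56).

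**Figure D1:**
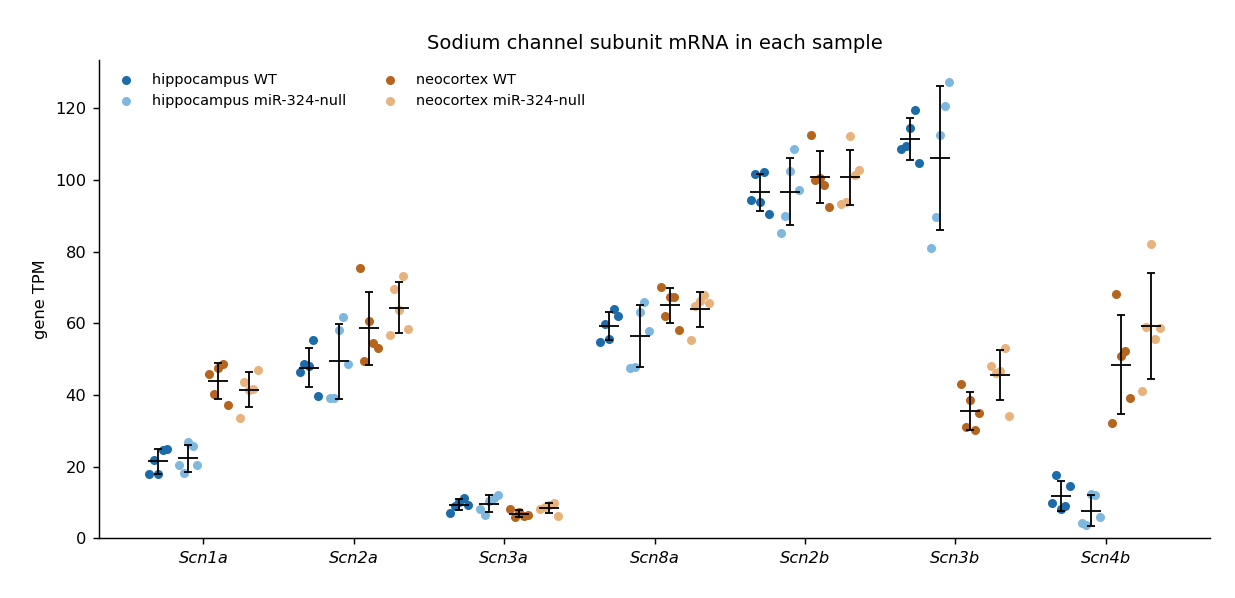
TPM of each sodium channel gene (vertical axis, linear from 0) in the 20 samples, by tissue and genotype. Points are samples and bars are mean ± SD of 5. Scn3b is at 81.0 TPM or more in each hippocampus sample and at 53.0 or less in each neocortex sample, Scn4b is at 17.6 or less and 32.1 or more, and Scn1a is at 26.95 or less and 33.5 or more.

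Between the tissues, the alpha subunit with the largest difference was Scn1a. Its level, given from here on as TMM-normalised CPM (counts scaled for library size and composition, not for length), was 85.6, 93.4, 77.0, 100.97 and 102 in WT hippocampus and 191, 171, 196, 206 and 159 in WT neocortex. In miR-324-null mice it was 83.0, 81.9, 115, 105 and 84.03 in hippocampus and 148, 181, 170, 173 and 198 in neocortex. The lowest neocortex sample exceeded the highest hippocampus sample in both genotypes. Scn1a was lower in hippocampus by a log2 fold change of -1.01 (SE 0.104, adjusted p = 1.48e-07) in WT and -0.89 (SE 0.104, adjusted p = 9.01e-07) in miR-324-null, so that neocortex held 2.01 and 1.86 times as much. In bulk tissue, fewer cells of a type and less RNA per cell cannot be told apart. Of 6 interneuron markers (Pvalb, Sst, Vip, Gad1, Gad2, Slc32a1), 4 were called lower in hippocampus in WT and 5 in miR-324-null. Of all genes tested, 33.5% and 32.5% were called in either direction. The median log2 fold change of the 6 was -0.32 in WT and -0.51 in miR-324-null. They summed to 576 to 740 CPM in WT hippocampus and 738 to 790 in WT neocortex, and to 608 to 800 and 781 to 895 in miR-324-null. These ranges overlapped in both genotypes. Of 6 pan-neuronal markers, 4 were lower in hippocampus in WT and 3 in miR-324-null, and they summed to 4867 to 5804 CPM over all hippocampus samples and 6075 to 7344 over all neocortex samples. Their part in the Scn1a difference was not tested.

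The other alpha subunits differed less. Scn2a was measured at 249, 240, 232, 258 and 202 CPM in WT hippocampus and 350, 259, 289, 255 and 274 in WT neocortex, and at 206, 213, 287, 285 and 238 against 280, 315, 291, 325 and 281 in miR-324-null. The groups overlapped in both genotypes. The log2 fold change was -0.27 (SE 0.099, adjusted p = 0.0376) in WT and -0.28 (SE 0.0988, adjusted p = 0.0344) in miR-324-null. Both calls were lost without the libraries of high choroid plexus markers (adjusted p = 0.1001 and 0.146), and on leaving out any of 7 single samples in WT and any of 6 in miR-324-null, with the highest adjusted p of 0.165 without WT neocortex 1 and 0.112 without miR-324-null hippocampus 1. Scn8a ranged from 366 to 411 CPM in WT hippocampus and from 397 to 432 in WT neocortex, and from 315 to 409 and from 357 to 412 in miR-324-null. These ranges overlapped. Its tissue difference was -0.10 on the log2 scale in both genotypes (95% interval -0.24 to 0.03 in WT and -0.23 to 0.04 in miR-324-null) and was not called.

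Scn3a, the alpha subunit of lowest level, went the other way. It was 38.9, 47.7, 49.8, 55.6 and 49.4 CPM in WT hippocampus and 41.2, 32.3, 36.1, 32.5 and 34.8 in WT neocortex. Only 1 hippocampus sample lay within the neocortex range. Scn3a was higher in WT hippocampus by 0.45 (SE 0.124, adjusted p = 0.00771). In miR-324-null mice the samples were 44.3, 36.0, 46.2, 56.3 and 58.1 in hippocampus and 43.2, 43.0, 44.9, 47.6 and 31.6 in neocortex, and the difference of 0.20 (95% interval -0.06 to 0.45, adjusted p = 0.232) was not called. The test of whether the difference changed with genotype is given below.

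Scn3b and Scn4b, both beta subunit genes, differed most of all 7, and in opposite directions. The Scn3b level was 268, 253, 259, 263 and 240 CPM in WT hippocampus and 95.8, 76.0, 86.1, 66.2 and 83.4 in WT neocortex. In miR-324-null mice it was 195, 218, 251, 264 and 290 in hippocampus and 116, 101.02, 104, 114 and 77.0 in neocortex. No hippocampus sample reached down to any neocortex sample. Scn3b was higher in hippocampus, by 1.65 on the log2 scale in WT (SE 0.113, adjusted p = 5.33e-10), a 3.15-fold difference, and by 1.25 in miR-324-null (SE 0.111, adjusted p = 2.74e-08), a 2.38-fold difference.

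Scn4b was 30.7, 52.7, 24.0, 25.9 and 44.1 CPM in WT hippocampus and 92.3, 212, 144, 152 and 121 in WT neocortex. In miR-324-null mice it was 13.6, 11.8, 36.4, 34.9 and 17.7 in hippocampus and 124, 168, 229, 155 and 169 in neocortex. It was the most variable of the 7 genes, with an SD of 35.0% of the mean in WT hippocampus and 52.0% in miR-324-null hippocampus, yet the tissues did not overlap. Scn4b was lower in hippocampus, with a log2 fold change of -2.02 in WT (SE 0.290, adjusted p = 1.15e-05) and -2.88 in miR-324-null (SE 0.302, adjusted p = 2.43e-07), so that neocortex held 4.06 and 7.34 times as much. Scn4b is also known as an abundant mRNA of striatal projection neurons. Of 9 markers of those neurons, 2 (Ppp1r1b among them) were called lower in hippocampus in WT and 9 in miR-324-null. Of all genes tested, 33.5% and 32.5% were called in either direction. The markers summed to 226 to 258 CPM in WT hippocampus and 253 to 584 in WT neocortex. In miR-324-null they summed to 176 to 229 in hippocampus and 367 to 813 in neocortex. None was at 0 in all samples of a group. Without the libraries with the most striatal marker mRNA, the Scn4b differences were -1.84 (adjusted p = 5.70e-05) and -2.74 (adjusted p = 1.09e-06). The neocortex libraries that were kept still summed to 253 to 323 CPM of striatal markers in WT and 367 to 586 in miR-324-null. The part of these markers in the Scn4b tissue difference was not tested.

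Scn2b, the remaining beta subunit, was level across the tissues, at 247 to 281 CPM in WT hippocampus and 260 to 301 in WT neocortex, and at 233 to 290 and 249 to 288 in miR-324-null. Its difference of -0.05 in WT had a 95% interval of -0.17 to 0.08, and that of -0.01 in miR-324-null an interval of -0.14 to 0.11. In all, 5 of 7 sodium channel genes were called in WT (2 higher in hippocampus, 3 lower) and 4 of 7 in miR-324-null (1 higher, 3 lower), beside 33.5% and 32.5% of all genes tested. Groups that did not overlap were seen for Scn1a, Scn3b and Scn4b in both genotypes, 3 of 7, beside 25.9% of all genes tested in WT and 20.8% in miR-324-null. The median difference of the 7 genes was -0.10 in either genotype, and that of all genes was 0.00.

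**Figure D2:**
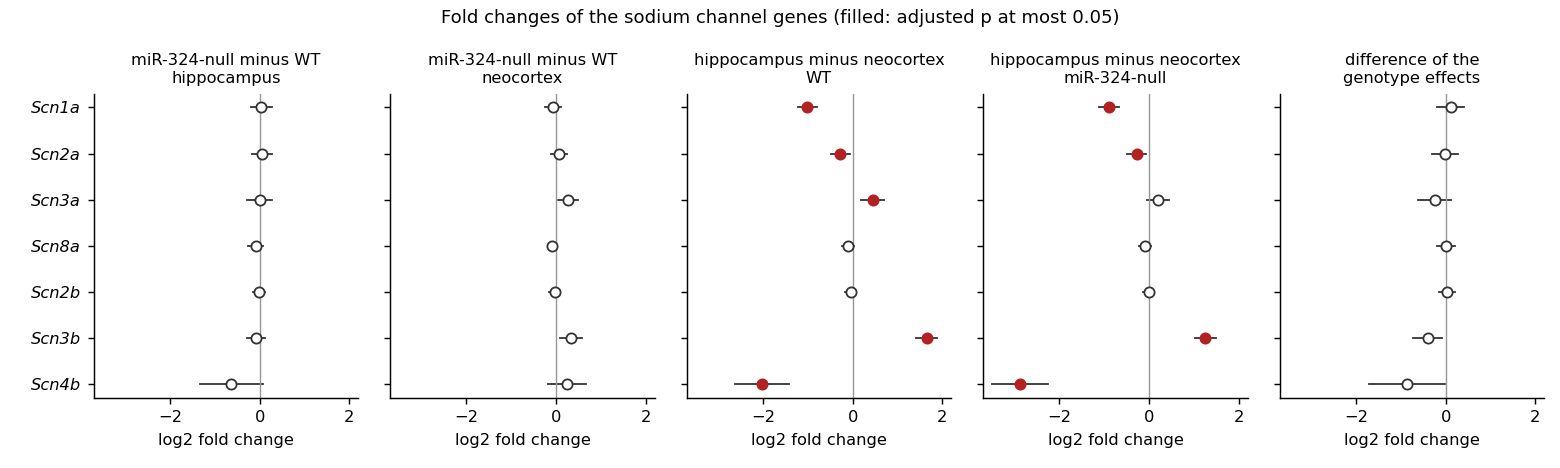
Log2 fold change (horizontal axis, points) with its 95% interval (lines) of each sodium channel gene in the 5 comparisons, from edgeR. Filled points have an adjusted p of at most 0.05 and are found only in the hippocampus against neocortex panels, with Scn4b at -2.02 and -2.88 and Scn3b at 1.65 and 1.25.

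The make-up of the channel mRNA was examined as the share of each gene in the summed TPM of its class. Among the alpha subunits of WT mice, Scn8a made up 43.1% ± 1.66 in hippocampus and 37.4% ± 1.55 in neocortex (SD, n = 5), Scn1a 15.5% ± 1.82 and 25.2% ± 1.78, Scn3a 6.76% ± 0.796 and 3.92% ± 0.242, and Scn2a 34.6% ± 3.05 and 33.5% ± 2.77. Thus Scn1a took a larger part in neocortex and Scn8a and Scn3a a larger part in hippocampus, while the Scn2a samples overlapped. A larger share of any gene leaves less for the others of its class, so a share can differ where the level does not. The Scn8a level itself was not higher in WT hippocampus, at 59.2 TPM against 65.0 in WT neocortex. Among the beta subunits of WT mice, Scn3b made up 50.7% ± 1.92 in hippocampus and 19.3% ± 3.06 in neocortex, and Scn4b 5.36% ± 1.82 and 26.1% ± 6.34. The ratio of Scn3b to Scn4b TPM ran from 6.24 to 14.2 in WT hippocampus and from 0.457 to 1.34 in WT neocortex, and from 9.03 to 23.8 and 0.569 to 1.17 in miR-324-null. The order of these 2 genes was thus the same in each hippocampus sample, with Scn3b ahead.

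A two-sided exact permutation test was applied to 9 measures (the 7 shares and both class sums) in the 4 pairs of groups, 36 tests in all. The smallest p that 5 against 5 samples can give is 0.00794, which is an adjusted p of 0.0238 here, and the shares of Scn1a, Scn3a, Scn8a, Scn3b and Scn4b reached it in the tissue comparison of both genotypes. In WT mice the Scn2b share (43.9% against 54.6%) and the summed beta TPM (220 in hippocampus against 185 in neocortex) reached it too, and the summed alpha TPM was 138 against 174 (adjusted exact permutation p = 0.0440). In miR-324-null mice these 3 measures were not called: the Scn2b share was 46.3% against 49.2%, the beta sum 211 against 206 and the alpha sum 138 against 178 (adjusted exact permutation p = 0.248, 0.767 and 0.0612). Whether the tissue difference of these measures itself differed between the genotypes was not tested. The shares of a class depend on each other, so their tests are not independent. The Scn2b level itself was 96.6 TPM in WT hippocampus and 100.8 in WT neocortex. Over all pairs, 13 of 36 tests were called, 8 in the WT and 5 in the miR-324-null tissue comparison, and 0 of 18 between genotypes, where 1, the Scn2b share in neocortex (49.2% in miR-324-null against 54.6% in WT), had an unadjusted p of at most 0.05 (exact permutation p = 0.0317, adjusted 0.0762).

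**Figure D3:**
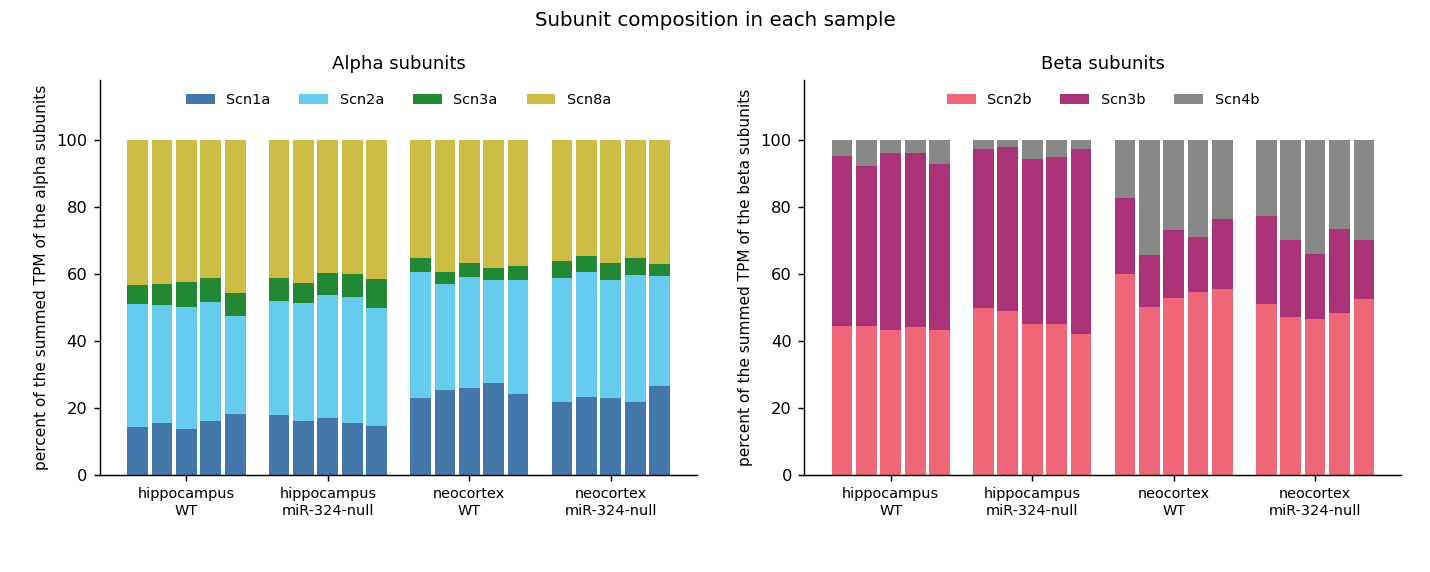
Share of each gene in the summed TPM of the 4 alpha subunits (left) and of the 3 beta subunits (right), in percent, with 1 stacked bar for each sample in replicate order. Scn3b fills 47.5% to 55.2% of the beta bars in hippocampus and 15.6% to 26.4% in neocortex.

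In the hippocampus, none of the 7 sodium channel genes was called between miR-324-null and WT (edgeR, 0 of 7 at an unadjusted p of at most 0.05, and 0 by DESeq2), beside 0.115% of all genes tested, 17 of 14796. Scn4b had the largest difference, -0.63 (SE 0.324, 95% interval -1.33 to 0.08, adjusted p = 0.494). Of its miR-324-null values given above, 13.6, 11.8 and 17.7 CPM (replicates 1, 2 and 5) lay below the lowest WT sample, whereas 36.4 and 34.9 (replicates 3 and 4) lay within the WT range. The same replicates 3 and 4 had the higher sums of neocortical layer markers, 273 and 271 CPM, against 203 to 214 in the other miR-324-null hippocampus samples and 207 to 255 in WT, and the part of this in the Scn4b spread was not tested. The other 6 genes had log2 fold changes between -0.09 and 0.06. The 95% intervals, which bound how large a difference could be, ran from -0.26 to 0.08 for Scn8a, -0.15 to 0.13 for Scn2b, -0.27 to 0.12 for Scn3b, -0.20 to 0.27 for Scn1a, -0.16 to 0.28 for Scn2a and -0.27 to 0.27 for Scn3a. For Scn2b and Scn4b, whose 3′UTRs hold the seed letters shown above, the estimates were -0.01 and -0.63, neither of them called.

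In the neocortex, again none of the 7 genes was called (edgeR and DESeq2, 0 of 7 each), beside 0.315% of all genes, 47 of 14930. Scn3b and Scn3a had an unadjusted edgeR p of at most 0.05, as did 1822 of the 14930 genes tested. Scn3b averaged 102 ± 15.6 CPM in miR-324-null and 81.5 ± 11.1 in WT, a log2 fold change of 0.33 (SE 0.114, adjusted p = 0.265), and Scn3a averaged 42.1 ± 6.11 and 35.4 ± 3.604, a log2 fold change of 0.26 (SE 0.103, adjusted p = 0.338). For both genes, 4 of 5 miR-324-null samples lay above each WT sample (Scn3b and Scn3a in replicates 1 to 4), and replicate 5, at 77.0 and 31.6 CPM, lay in or below the WT range. Without replicate 5 both genes were called, Scn3b at 0.42 (adjusted p = 0.0220) and Scn3a at 0.34 (adjusted p = 0.0206), beside 3.76% of all genes, 566 of 15071, called in the same fit.

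Markers of hippocampal fields moved with these values. Their sum was 188, 206, 137, 175 and 102 CPM in miR-324-null neocortex samples 1 to 5 and 117, 110, 108.5, 116 and 119 in WT, while the neocortical layer markers summed to 567, 531, 610, 654 and 792 and to 783, 796, 698, 755 and 748. Replicate 5 was therefore the miR-324-null sample nearest to WT on both marker lists as well as on Scn3b and Scn3a. Both genes are higher in WT hippocampus than in WT neocortex. With the mean log2 level of the hippocampal markers as a covariate, the Scn3b difference was 0.06 (95% interval -0.20 to 0.33) and that of Scn3a 0.04 (-0.22 to 0.30). Between the genotypes in neocortex, 0 of 5 hippocampal markers tested were called by edgeR, 4 had an unadjusted p of at most 0.05 and DESeq2 called 2. Of 6 neocortical layer markers, 0 were called by edgeR, 4 had an unadjusted p of at most 0.05 and DESeq2 called 1. The covariate was chosen after the data were seen. It also nearly follows genotype, since the hippocampal marker sums of miR-324-null samples 1 to 4 lay above every WT sample. A fit with this covariate therefore cannot tell a genotype difference from a difference in marker content. The part of these markers in the Scn3b and Scn3a values was not tested.

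The remaining genes of the neocortex comparison lay closer to 0, with Scn8a at -0.09 (95% interval -0.19 to 0.01), Scn1a at -0.08 (-0.26 to 0.10), Scn2a at 0.07 (-0.10 to 0.25) and Scn2b at -0.03 (-0.15 to 0.08). Scn4b averaged 169 ± 37.98 CPM in miR-324-null and 144 ± 44.6 in WT, with a log2 fold change of 0.24 (95% interval -0.19 to 0.66). The highest Scn4b value of each genotype, 229 and 212 CPM, was in the library with the most striatal marker mRNA, 813 and 584 CPM. In WT the lowest of both, 92.3 CPM of Scn4b and 253 of striatal markers, were also in the same library, replicate 1. The other miR-324-null samples did not keep that order. Replicate 5 had the lowest striatal sum, 367 CPM, with 169 CPM of Scn4b, and replicate 1, with a sum of 463 CPM, had the lowest Scn4b, 124 CPM. With the striatal marker score as a covariate the estimate turned to -0.14 (95% interval -0.54 to 0.25). With the hippocampal marker score it was 0.69 (0.21 to 1.17, adjusted p = 0.476). The sign and size of the Scn4b estimate thus moved with the marker list taken into account, and 7 of 9 striatal markers themselves had an unadjusted p of at most 0.05 between the genotypes in neocortex (0 called by edgeR or DESeq2). The striatal sums were 367 to 813 CPM in miR-324-null and 253 to 323 in WT, except for WT replicate 2 at 584. The fit with the striatal score therefore cannot tell a genotype difference from a difference in marker content.

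**Figure D4:**
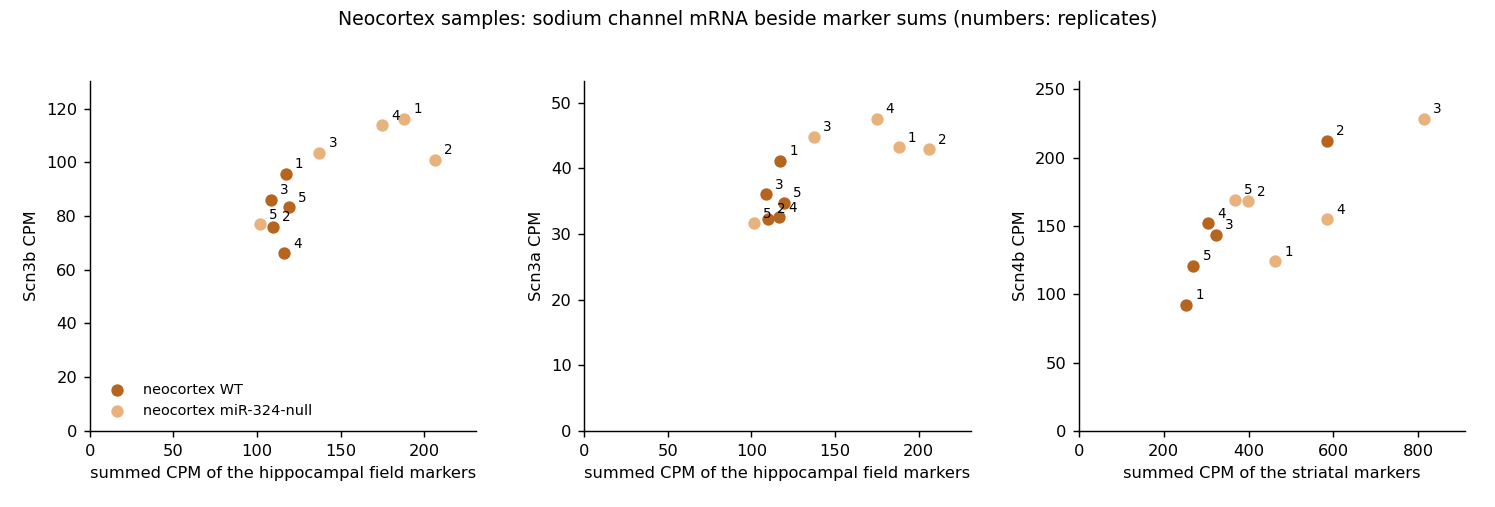
CPM of Scn3b, Scn3a and Scn4b (vertical axes) in the 10 neocortex samples against the summed CPM of hippocampal field markers or striatal markers (horizontal axes), with replicate numbers beside the points. The miR-324-null replicate 5 has 102 CPM of hippocampal markers and 77.0 CPM of Scn3b, beside the WT samples, and miR-324-null replicate 3 has 813 CPM of striatal markers and 229 CPM of Scn4b.

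The difference between the genotype effects of the 2 tissues was tested in one model of all samples. None of the 7 genes was called (edgeR and DESeq2, 0 of 7 each), beside 0.0195% of all genes, 3 of 15391. Scn3b, at -0.40 (95% interval -0.73 to -0.08, adjusted p = 0.852), and Scn4b, at -0.85 (95% interval -1.70 to -0.01, adjusted p = 0.889), had an unadjusted p of at most 0.05. So did 857 of the 15391 genes tested. Among the marker lists, 5 of 6 hippocampal field markers, 7 of 9 striatal markers and 0 of 6 neocortical layer markers did, with 0 called. The part of tissue make-up in the Scn3b and Scn4b values was not tested. The value for Scn3a was -0.25 (95% interval -0.61 to 0.11), so the tissue difference called in WT and not in miR-324-null was not shown to differ between the genotypes.

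Each alpha gene gives several annotated transcripts, and the deposited table divides the reads among them. Scn1a, Scn2a and Scn3a lie together on chromosome 2 (chr2:66270778-66440840, chr2:65620771-65767447 and chr2:65457118-65567627 in GRCm38), and share sequence: of the distinct 31-base stretches in their transcripts, 7.29%, 9.16% and 9.56% also occur in another gene, against 0.496% for Scn8a (chr15:100869858-101045938). For the beta genes, all on chromosome 9, the shares were 2.22% for Scn2b (chr9:45117782-45130070), 0.233% for Scn3b (chr9:40269217-40291618) and 0% for Scn4b (chr9:45138395-45154152). Reads from such stretches are divided by the quantification and not observed, and the levels of Scn2a and Scn3a, with 822 stretches in common, are the most exposed.

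Shares of 17 transcripts with at least 5% of the TPM of their gene were compared in the 4 pairs of groups, 68 exact permutation tests. None was called after adjustment, and 5 had an unadjusted p of at most 0.05. In the miR-324-null tissue comparison, Scn1a-208 and Scn3b-202 reached the smallest p that this design allows (exact permutation p = 0.00794, adjusted 0.270). Even complete separation of the groups was thus not called over these 68 tests. The lack of calls therefore does not show that the transcript shares were alike. The most abundant Scn8a transcript, Scn8a-205, was steady at 79.7% ± 5.12, 81.3% ± 5.17, 79.2% ± 2.99 and 80.1% ± 3.41 of the Scn8a TPM in WT hippocampus, miR-324-null hippocampus, WT neocortex and miR-324-null neocortex. By contrast Scn2a-202 ranged from 42.1% to 85.2% of the Scn2a TPM over all samples. Scn4b has a single annotated transcript.

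Scn1a-208 is annotated as subject to nonsense-mediated decay and carries, alone among the Scn1a transcripts, an exon of 64 bases at chr2:66293832-66293895 (minus strand), whose length leaves 1 base over whole codons. It is shown as the exon that marks this transcript, in lower case throughout.
Scn1a-208 exon: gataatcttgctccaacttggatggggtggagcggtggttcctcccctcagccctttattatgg
Exons of this kind are known to lower the amount of functional Scn1a mRNA when they are included. The Scn1a-208 share of the Scn1a TPM was 17.2, 24.8, 23.5, 24.4 and 31.8% in WT hippocampus and 38.1, 23.0, 22.9, 27.9 and 29.8% in miR-324-null hippocampus. In neocortex it was 23.4, 31.2, 20.6, 23.3 and 28.9% in WT and 21.9, 18.3, 20.7, 19.3 and 22.3% in miR-324-null. All miR-324-null hippocampus samples lay above the miR-324-null neocortex samples, at the smallest p this design allows (exact permutation p = 0.00794), but with an adjusted p of 0.270 over the 68 tests the difference was not called. In WT the means were 24.3% in hippocampus and 25.5% in neocortex (exact permutation p = 0.722, adjusted 0.893). Between genotypes they were 20.5% in miR-324-null and 25.5% in WT neocortex (exact permutation p = 0.0476, adjusted 0.648), and 28.4% and 24.3% in hippocampus (exact permutation p = 0.310, adjusted 0.893). Since Scn1a-208 shares most of its sequence with the full-length transcripts, its share was inferred by the quantification, and reads over the exon itself were not counted here.

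**Figure D5:**
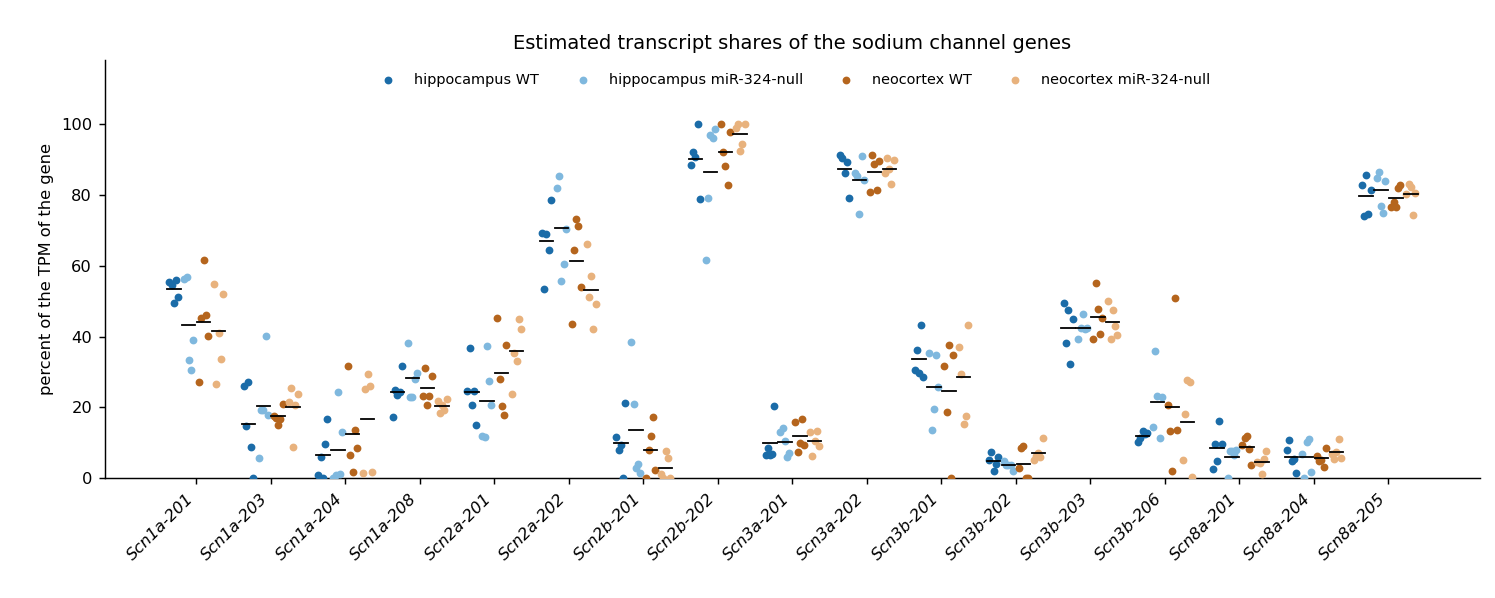
Estimated share of each transcript in the TPM of its gene (vertical axis, percent) for the 17 transcripts tested, by tissue and genotype. Points are samples and lines are means of 5. Scn8a-205 lies between 74.0% and 86.4%, whereas Scn2a-202 lies between 42.1% and 85.2%.

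A list of 22 genes that anchor or regulate these channels, among them ankyrins, spectrins, cell adhesion molecules, intracellular fibroblast growth factors and calmodulins, was examined beside them. Between tissues, 4 were higher and 4 lower in WT hippocampus and 3 higher and 6 lower in miR-324-null hippocampus, beside 33.5% and 32.5% of all genes called, and the list median was -0.01 and -0.05. The 4 genes of smallest p in WT were the intracellular fibroblast growth factors, which bind the cytoplasmic tail of the alpha subunit and shift its inactivation. Fgf13 was 187 ± 11.8 CPM in hippocampus and 110 ± 6.07 in neocortex of WT mice (log2 fold change 0.76, adjusted p = 1.42e-08). Fgf11 was 32.5 ± 2.01 and 17.6 ± 1.48 CPM (0.88, adjusted p = 8.85e-07). The other two were lower in hippocampus, Fgf12 at 88.0 ± 12.4 and 169 ± 1.75 CPM (-0.94, adjusted p = 1.82e-07) and Fgf14 at 25.6 ± 2.13 and 36.8 ± 0.902 (-0.52, adjusted p = 3.56e-07). All 4 were called in the same directions in miR-324-null mice, at 0.86, 0.81, -0.84 and -0.32. Between genotypes, 0 of 22 were called in hippocampus, 0 in neocortex and 0 for the difference between them, by edgeR and by DESeq2. By edgeR, 2, 2 and 1 of them had an unadjusted p of at most 0.05.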

How the data were processed

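Hippocampus and neocortex RNA was sequenced by the authors from a stranded mRNA library (Illumina TruSeq), pseudo-aligned with kallisto to the mouse GRCm38 transcriptome (release 92) and deposited as 1 transcript table per sample. The estimated counts deposited by the authors are read numbers divided among similar transcripts, and the deposited TPM values are scaled by transcript length and to the same total in each sample. The labels name GRCh38, the human build, but the transcripts are of mouse. The strand setting of kallisto is not given in the sources used here.

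Of 115270 transcripts, 113580 matched GENCODE M21 (GRCm38) and were summed to 35580 genes, and the 1690 others, at most 0.556% of the counts of a sample, were left out. Rounded gene counts were tested with edgeR 4.0.16 (R 4.3.3; filterByExpr, TMM, quasi-likelihood test, log2 fold changes), within each tissue for genotype and in 1 fit of all 20 samples for tissue and for the difference of the genotype effects. Genes were called at a Benjamini-Hochberg adjusted p of at most 0.05 over all genes tested. Shares of TPM were compared by two-sided exact permutation tests. The labels do not say that the samples of a group came from separate mice, and p-values measure the spread between these samples. DESeq2 1.42.0, other filters, scalings and sample sets, length offsets and a replicate block were alternatives. Count tests were tested on simulated data. Group medians, marker sums and levels use TMM-normalised CPM. Depth was 12752439 to 19617765 counts per sample.

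The 7 genes, the gene lists and the tests were chosen with earlier results of these data known. Named partner genes were up to 4 per comparison with the smallest p among those called. The likeness measure used genes of at least 5 CPM on average and log2(CPM + 0.5). Libraries were doubted where choroid plexus markers summed to over 5 times, or striatal markers to over 1.5 times, the median of the group. A few items are not reported here.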

Additional observations from a re-analysis of the deposited data

Results flagged for a closer look

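Over 132 sets of 5 samples (gene levels, composition measures and transcript shares, each in the 4 groups), 3 held a sample far from the other four, where chance alone gives about 1 in 20. In WT hippocampus, the Scn2a share of the summed alpha TPM was 29.3% in replicate 5, the lowest of its group. In the same sample Scn3a-201 made up 20.4% of the Scn3a TPM, the highest of its group. In miR-324-null hippocampus, Scn8a-201 made up 0.0569% of the Scn8a TPM in replicate 1, the lowest of its group.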

How the results depend on the processing

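Under every alternative tried (DESeq2 size factors in edgeR, no filter or a minimum of 10 counts, DESeq2, transcript length offsets, other sample sets, the replicate block and, chosen after seeing the data, the hippocampal covariate and the doubted libraries left out), 0 sodium channel genes were called for genotype in either tissue or for the difference between them, 4 to 5 for tissue in WT and 3 to 4 in miR-324-null, where the gene lost was Scn2a. With 1 sample left out, 0 to 2 genes were called for genotype in neocortex (2 without miR-324-null replicate 5), 4 to 5 and 3 to 4 for tissue in WT and miR-324-null, and 12 to 14 composition measures. Of 9 called differences, 7 were called under every alternative and with every sample left out. The Scn2a tissue call was lost in WT with no filter (-0.26), with length offsets in edgeR (-0.27) or DESeq2 (-0.27) and without the libraries of high choroid plexus markers (-0.26), and in miR-324-null with no filter (-0.27), with only that genotype's samples (-0.27) and without the libraries of high choroid plexus (-0.24) or striatal (-0.28) markers.

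Some small log2 differences changed sign, none of them called. With length offsets, Scn3a between genotypes in hippocampus was 0.0402 in edgeR and 0.0410 in DESeq2, and Scn2b between tissues in miR-324-null was 0.0165 and 0.0178, and 0.0201 without the libraries of high striatal markers. With the hippocampal marker score, the neocortex genotype values were 0.0207 for Scn1a, -0.0286 for Scn2a and 0.0408 for Scn2b, and with the striatal score Scn4b was -0.143. For the difference between tissues in the genotype effect, Scn2a was 0.0173 without the libraries of high choroid plexus markers and 0.0169 without those of high striatal markers, and Scn8a was -0.0160 and Scn2b -0.0132 without those of high choroid plexus markers. Leaving out 1 sample gave, for genotype in hippocampus, -0.0503 to 0.0767 (Scn1a), -0.00302 to 0.115 (Scn2a), -0.0775 to 0.0863 (Scn3a) and -0.0438 to 0.0337 (Scn2b). For Scn2b it gave -0.0617 to 6.78e-05 for genotype in neocortex and -0.0448 to 0.0333 between tissues in miR-324-null. For the difference of genotype effects it gave -0.0931 to 0.0457 (Scn2a), -0.0420 to 0.0512 (Scn8a) and -0.00960 to 0.0683 (Scn2b). The cause was not tested.

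Over all genes, the calls between genotypes moved from 4 to 139 in hippocampus and from 12 to 240 in neocortex over the other alternatives (DESeq2 the highest in both), and from 10 to 31 and from 27 to 566 with 1 sample left out. For the difference of genotype effects they ran from 0 to 11 and from 1 to 20. With the replicate number as a block, 4, 30 and 0 genes were called for hippocampus, neocortex and their difference, and no call of a sodium channel gene changed. The numbers were not taken to pair samples, since the labels do not say that they do. Same-numbered samples correlated in their deviations from the group means at -0.102 to 0.101 between WT tissues (2 of 5 best with their own number). Between miR-324-null tissues the values were 0.0165 to 0.177 (3 of 5). Between genotypes, where no mouse can be shared, they were -0.172 to 0.113 in hippocampus and -0.102 to 0.121 in neocortex (1 of 5 each). These values do not settle whether the numbers pair samples. The shares were not refitted with the replicate number as a block, and an exact sign-flip test of 5 pairs cannot give a p below 0.0625. The lowest count of the 7 genes was 154 (Scn4b), and the division of reads among similar transcripts was estimated, not observed.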

Other observations

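The other alpha subunit genes examined, those best known from muscle, peripheral nerve and glia, were near the bottom of the range. Scn9a lay between 0.336 and 1.14 TPM and Scn7a between 0.303 and 1.66 TPM over all samples. Of the 5 genes of this list, these 2 had enough reads to be tested, and edgeR called neither in any comparison. DESeq2 called 0 between genotypes. By edgeR, Scn7a in hippocampus and Scn9a in neocortex had an unadjusted p of at most 0.05 between genotypes. Scn10a, a gene of sensory neurons, was not tested: it had 0 to 0.0355 TPM over the hippocampus samples and 0.0839 to 0.296 TPM over the neocortex samples. Scn4a and Scn11a did not exceed 0.0616 TPM in any sample.

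The genes most like each sodium channel gene were ranked by Pearson correlation of their differences from the 4 group means over the 20 samples, as a description with no test, since all genes of a sample share its library and its cell make-up. For Scn1a they were Trim66 (r = 0.900), Gls2 (0.887) and Tut7 (0.874). For Scn2a they included Pde4d (0.954) and Adgrl3 (0.936), and for Scn3a they were Med12l (0.923), Lrp1b (0.872) and Setd2 (0.857). For Scn8a they were Pi4ka (0.925), Cacna1a (0.914), the pore of a presynaptic calcium channel, and Lmtk2 (0.909). Among the beta subunits they were Lrfn5 (0.915), Extl2 (0.868) and Vps33a (0.863) for Scn2b, Fbxo10 (0.908), Ogn (0.904) and Fmod (0.898) for Scn3b, and Smg5 (0.882), Tmem196 (0.879) and Hipk4 (0.865) for Scn4b.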
